A study of Mus musculus with 6 samples.

Results

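The endocannabinoid genes examined here are the cannabinoid receptor Cnr1, the enzymes Dagla and Daglb, which make 2-arachidonoylglycerol (2-AG), Mgll, Abhd6 and Abhd12, which break it down, and Napepld and Faah, which make and break down N-acylethanolamines such as anandamide. They were taken by gene symbol, and all 8 were found among the 36079 genes of the expression table, each as 1 row. The tissue was temporal lobe from epileptic mice. Epilepsy was induced with kainic acid, which excites neurons through glutamate receptors and causes seizures. After kainic acid, 3 mice ate a ketogenic diet, rich in fat and poor in carbohydrate, and 3 ate chow, in both cases for 3 weeks. Kainic acid is thus common to both diets, and no mouse without it is part of the comparison. Strain, age and sex are not given in the labels, and the labels call the tissue only brain. Each mouse gave 1 bulk poly(A) RNA library, with expression recorded as FPKM, fragment counts divided by the length of the gene and the size of the library. This division puts genes and mice on a common scale, but it does not correct for libraries that differ in composition.

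Endocannabinoids are lipid messengers made on demand from membrane phospholipids. At many brain synapses, calcium entry and Gq-coupled receptors of the receiving neuron lead to 2-AG, which crosses the synapse backwards and lowers transmitter release through the CB1 receptor encoded by Cnr1. CB1 lies on the terminals of cholecystokinin interneurons, of cortical and hippocampal excitatory neurons and, densely, of striatal projection neurons. In the forebrain, 2-AG for this signal is made mostly by diacylglycerol lipase alpha (Dagla) and is cleared mostly by monoacylglycerol lipase (Mgll).

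Reads recovered from the steps of the FPKM values summed to between 39927217 and 55910355 per library. These sums use the smallest whole numbers that fit each gene and cover only reads assigned to genes, so they may understate the depth. The libraries differed in their levels of brain region markers. Summed FPKM of 10 thalamic and hypothalamic markers ranged from 22.2 to 63.9 in ketogenic libraries and from 31.1 to 450 in chow libraries, with the highest sum in chow replicate 1. All 9 of these markers that were measured well enough to test had a negative log2 change, and Otp was listed at 0 in ketogenic replicate 2 and chow replicate 3. Summed FPKM of 10 striatal markers was 839 in ketogenic replicate 2 and 1062 in chow replicate 2, and 295 or less in the other 4 libraries. Summed FPKM of 8 excitatory neuron markers ranged from 855 to 1573 in ketogenic libraries and from 408 to 1142 in chow libraries, with the lowest sum in chow replicate 1. That of 9 inhibitory neuron markers ranged from 357 to 455 in ketogenic libraries and from 237 to 458 in chow libraries, again lowest in chow replicate 1. Log2 changes were positive for 7 of 8 excitatory, 6 of 9 inhibitory and 9 of 10 striatal markers. For 8 hippocampal markers the sum ranged from 109 to 198 FPKM in ketogenic libraries and from 87.2 to 162 FPKM in chow libraries. Of these markers, 4 had positive and 4 negative log2 changes. Summed FPKM of 10 choroid plexus markers was 1241 in ketogenic replicate 3 and 1003 and 2139 in chow replicates 1 and 3, and 37.2 to 41.8 in the other 3 libraries. Most of each sum was 1 gene. Ttr stood at 1074 FPKM in ketogenic replicate 3 and at 835 and 1883 FPKM in chow replicates 1 and 3. Enpp2 stood at 32.4 to 37.3 FPKM in the other 3 libraries. All 10 markers had a negative log2 change, with Otx2 listed at 0 in ketogenic replicate 2 and Folr1 in chow replicate 2. Oligodendrocyte markers (8 of 8), endothelial markers (7 of 7), astrocyte markers (6 of 8) and precursor cell markers of the oligodendrocyte lineage (5 of 6) mostly had negative log2 changes too. Their summed FPKM was highest in chow replicate 1 for each of these lists. General neuron markers such as Snap25 were high in every library, and their 7-gene sum lay between 888 and 1108 FPKM.

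No endocannabinoid gene differed between the diets beyond the spread between mice. Of the 8 genes, 7 had a higher mean log2 level on the ketogenic diet and Napepld a lower one, and the diet groups overlapped in all 8. Tested with limma on log2(FPKM + 0.5), across the 16009 genes that averaged 0.5 FPKM or more, 0 of the 8 passed an adjusted p of 0.05, against 0% of all tested genes. At an unadjusted p under 0.05 there were again 0 of 8, where 5.38% of all tested genes met that mark, and groups without overlap were seen in 0 of 8, where 12.4% of tested genes had them. The adjusted p of the 8 genes ran from 0.756 to 0.926. Their median log2 change was 0.13, beside -0.04 for all tested genes, of which 43.1% had a positive change. Exact permutation tests, two-sided on 3 against 3 mice, gave p from 0.2 to 0.8 for single genes, where 0.1 is the smallest that this design allows. Among all tested genes with an unadjusted p under 0.05, 329 were higher and 532 lower in ketogenic mice, and the split was 490 higher and 379 lower after centring each library on its median.

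**Figure D1:**
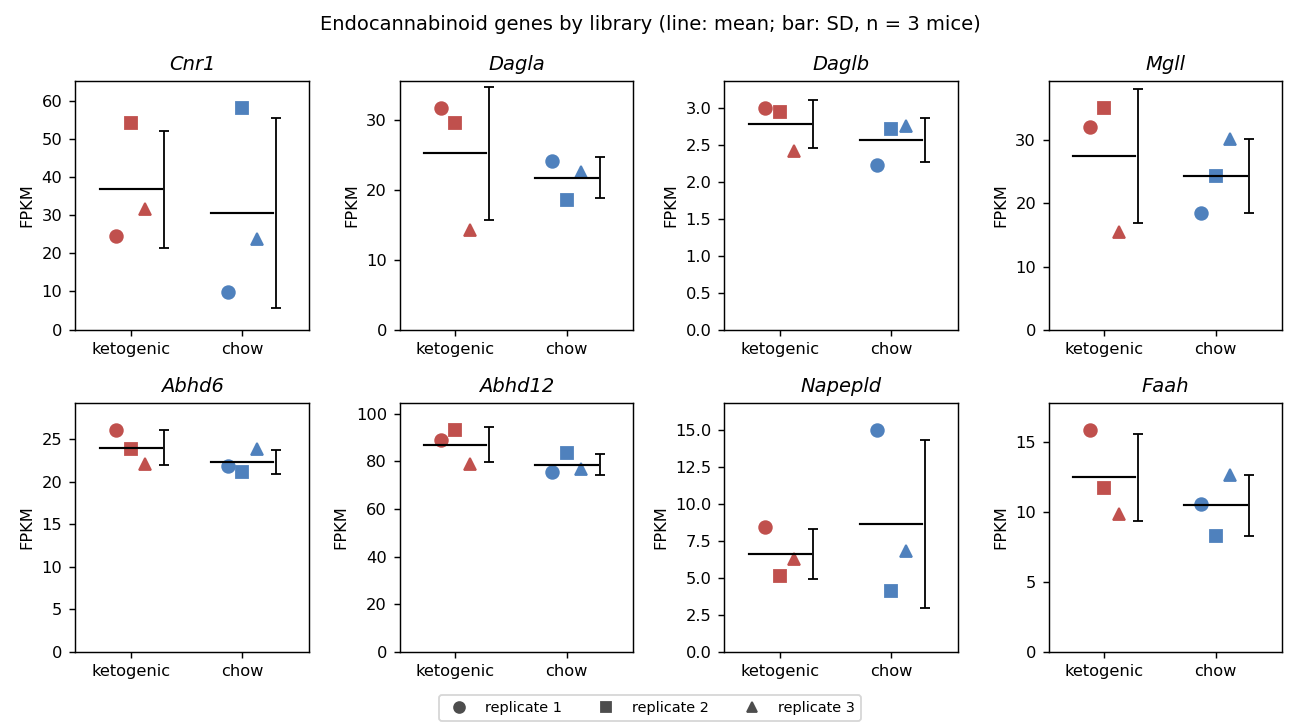
FPKM of each endocannabinoid gene in the 6 libraries, ketogenic left and chow right, with marker shape for the replicate number, a line at the mean and a bar for the SD (n = 3 mice each). The 2 diets overlap in every panel, and the spread within a diet is wide for Cnr1, where values run from 9.82 to 58.2 FPKM, and narrow for Abhd6 and Abhd12.

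Cnr1 (ENSMUSG00000044288), the CB1 receptor, varied more between mice than any other gene of the set. It measured 24.6, 54.1 and 31.7 FPKM in ketogenic replicates 1, 2 and 3, against 9.82, 58.2 and 23.8 FPKM in chow replicates 1, 2 and 3. Both extremes were thus chow libraries, and the ketogenic values lay between them. The mean was 36.8 ± 15.4 FPKM (SD, n = 3) in ketogenic mice and 30.6 ± 24.9 FPKM in chow mice. The log2 change was 0.53 ± 0.63 (SE), with a 95% interval from -0.99 to 2.05 (limma, adjusted p = 0.818). The highest library was 5.92 times the lowest, and 97.8% of tested genes had a smaller within-group SD. Counting noise is small beside this, since Cnr1 had between 3525 and 19308 recovered reads per library.

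The highest and lowest Cnr1 levels fell in libraries at the ends of some regional marker sums. The libraries with the most Cnr1, ketogenic replicate 2 and chow replicate 2, were those with the highest striatal marker sums, 839 and 1062 FPKM. The library with the least, chow replicate 1, had the highest thalamic sum, 450 FPKM. It also had the lowest excitatory and inhibitory neuron sums, 408 and 237 FPKM. Between these ends the match was partial. In ketogenic replicates 1 and 3 the excitatory sums were 1490 and 855 FPKM, the reverse order to Cnr1 at 24.6 and 31.7 FPKM. Their striatal sums, 56.9 and 295 FPKM, had the same order as Cnr1. Without chow replicate 1 the log2 change of Cnr1 was -0.09, so its sign rests on that library. Without chow replicate 2 it was 1.16 (limma, unadjusted p = 0.0501, adjusted p = 0.430). With the thalamic marker level as a covariate it was -0.83 ± 0.34 (SE; limma, unadjusted p = 0.0532, adjusted p = 1.00). With the striatal marker level as a covariate it was 0.32, and with that of the choroid plexus 0.13. All 9 tested thalamic and all 10 choroid plexus markers had negative log2 changes, so these 2 covariates are not independent of diet. In bulk tissue, fewer cells that express a gene and less RNA per cell cannot be told apart, and the part of dissection in these values was not tested.

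The promoter of Cnr1 is shown with that of Faah because these 2 genes had the largest positive log2 changes of the set, and the title of the series names PPARγ, a nuclear receptor with a known DNA motif. The 250 bases before a transcription start are given 5′ to 3′ on the strand of the gene, from RefSeq on GRCm38.p6, an earlier build than that of the expression table. The window of Cnr1 is chr4:33924014-33924263 on the plus strand, the first of 3 annotated starts and the only one of them whose following bases were not found in a GENCODE M21 transcript of the gene, and that of Faah is chr4:116017925-116018174 on the minus strand. Capitals mark GC boxes, GGGCGG on either strand.
Cnr1: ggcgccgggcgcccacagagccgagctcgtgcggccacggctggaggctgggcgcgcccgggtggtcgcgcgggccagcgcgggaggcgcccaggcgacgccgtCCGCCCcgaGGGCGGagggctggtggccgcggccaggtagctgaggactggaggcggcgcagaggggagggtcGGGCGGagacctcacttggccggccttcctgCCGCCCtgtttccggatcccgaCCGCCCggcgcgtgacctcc
Faah: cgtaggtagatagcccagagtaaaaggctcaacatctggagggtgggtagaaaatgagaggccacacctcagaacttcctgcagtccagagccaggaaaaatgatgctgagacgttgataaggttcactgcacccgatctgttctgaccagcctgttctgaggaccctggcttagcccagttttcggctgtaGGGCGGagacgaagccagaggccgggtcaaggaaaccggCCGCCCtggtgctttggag
The table held promoters for 6 of the 8 genes, 10 starts in all. No start had a PPAR response element (AGGTCA, any 1 base, then AGGTCA again), a cAMP response element TGACGTCA or a TATA box TATAAA on either strand in these windows. The shares of all 32851 promoters with them were 0.0335%, 1.55% and 12.4%. A GC box stood in 4 of the 10 windows, or 40%, with 1 such window each for Cnr1, Faah, Mgll and Abhd6, beside 32.7% of all promoters. A match is a run of letters and shows no binding, and a missing match says only that these letters are not in the window.

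For 2-AG synthesis, as counted, Dagla was the abundant lipase and Daglb the scarce one in every library. Dagla (ENSMUSG00000035735) measured 31.8, 29.7 and 14.3 FPKM in ketogenic replicates 1, 2 and 3, against 24.2, 18.6 and 22.5 FPKM in chow replicates 1, 2 and 3. Ketogenic replicates 1 and 2 were thus above all chow libraries, and ketogenic replicate 3 was below all of them. The mean was 25.3 ± 9.53 FPKM (SD, n = 3) in ketogenic mice and 21.8 ± 2.91 FPKM in chow mice, and the log2 change was 0.14 ± 0.31 (SE) with a 95% interval from -0.60 to 0.88. Without ketogenic replicate 3 the log2 change of Dagla was 0.50 (limma, unadjusted p = 0.0173, adjusted p = 0.653), and without ketogenic replicate 1 or 2 it was -0.07 or -0.02. Ketogenic replicate 3 also had the lowest excitatory neuron marker sum of the ketogenic libraries, 855 FPKM, and a choroid plexus marker sum of 1241 FPKM, against 37.2 and 41.8 FPKM in the other ketogenic libraries. In chow replicates 1, 2 and 3 the excitatory sums were 408, 1007 and 1142 FPKM and the choroid plexus sums 1003, 40.9 and 2139 FPKM. Of these chow libraries, Dagla was highest in replicate 1 and lowest in replicate 2. With the choroid plexus marker level as a covariate the log2 change of Dagla was -0.02. The part of these markers in the Dagla level was not tested further.

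Daglb (ENSMUSG00000039206), the beta isoform known mainly from microglia and macrophages, measured 3.01, 2.95 and 2.42 FPKM in ketogenic replicates 1, 2 and 3, against 2.23, 2.72 and 2.76 FPKM in chow replicates 1, 2 and 3. The groups overlapped, with the lowest value in chow replicate 1. The log2 change was 0.10 ± 0.14 (SE), with a 95% interval from -0.23 to 0.43. It was 0.018 without chow replicate 1 and 0.19 without ketogenic replicate 3. Daglb values are uncertain because 2309 exonic bases of it overlap Rac1 on the opposite strand in the GENCODE M21 annotation, and the sources used here do not give the strand setting of the counting. Rac1, a small GTPase of the cytoskeleton, stood at 70.3 to 77.4 FPKM, which was 23.9 to 32.1 times the Daglb level. Whether Daglb was counted too high or too low was not tested. Taken as counted, Dagla made up 89.3 ± 3.23% of the summed FPKM of both lipases (SD, n = 3) on the ketogenic diet and 89.3 ± 2.19% on chow, with a range over libraries from 85.6% to 91.6%.

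**Figure D2:**
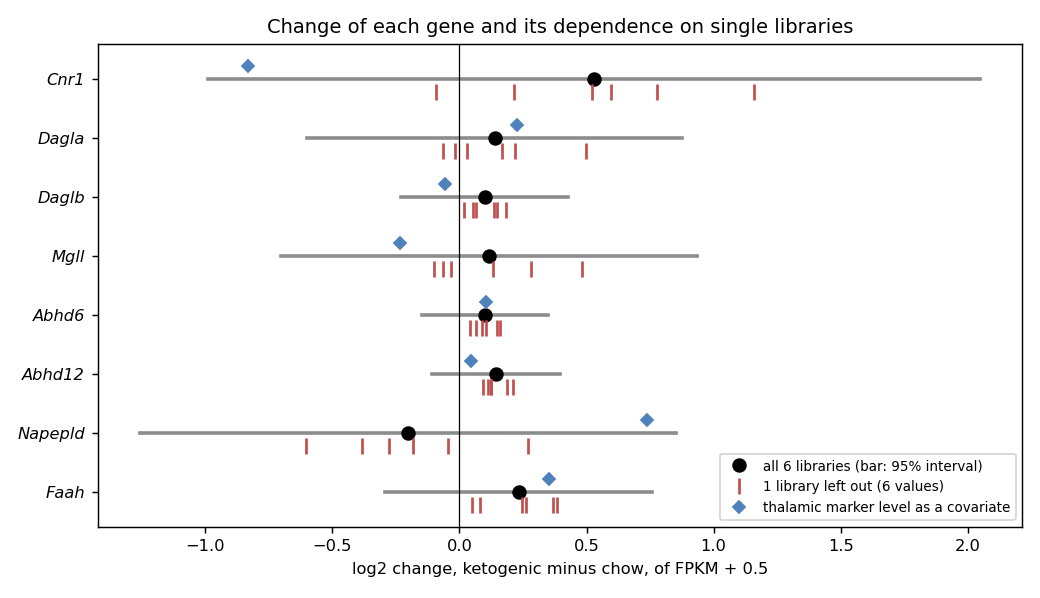
Log2 change of each gene, ketogenic minus chow, on the log2(FPKM + 0.5) scale, as a black point with its 95% interval from limma, with red ticks for the 6 fits that each leave out 1 library and a blue diamond for the fit with the thalamic marker level as a covariate. Every interval spans 0. The ticks of Abhd6, Abhd12, Daglb and Faah stay above 0, and those of Cnr1, Dagla, Mgll and Napepld fall on both sides.

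Of the enzymes that break down 2-AG, Mgll ranged 2.28-fold between libraries, and Abhd6 and Abhd12 each 1.23-fold. Mgll (ENSMUSG00000033174), the main 2-AG hydrolase of nerve terminals, measured 32.0, 35.2 and 15.4 FPKM in ketogenic replicates 1, 2 and 3, against 18.5, 24.4 and 30.2 FPKM in chow replicates 1, 2 and 3. As with Dagla, ketogenic replicates 1 and 2 were the 2 highest libraries and ketogenic replicate 3 the lowest. The mean was 27.6 ± 10.6 FPKM (SD, n = 3) in ketogenic mice and 24.4 ± 5.87 FPKM in chow mice, and the log2 change was 0.12 ± 0.34 (SE) with a 95% interval from -0.70 to 0.93. It was 0.48 without ketogenic replicate 3 and -0.06 without chow replicate 1, and -0.03 or -0.10 without ketogenic replicate 1 or 2. With the choroid plexus marker level as a covariate it was -0.09. A transcript on the opposite strand, Gm26588, shares 167 exonic bases with Mgll and stood at 0.274 to 0.573 FPKM.

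Abhd6 (ENSMUSG00000025277), a membrane hydrolase of 2-AG in the receiving neuron, measured 26.1, 23.9 and 22.1 FPKM in ketogenic replicates 1, 2 and 3, against 21.9, 21.2 and 23.9 FPKM in chow replicates 1, 2 and 3. Its log2 change was 0.10 ± 0.10 (SE), with a 95% interval from -0.15 to 0.35. It ranged from 0.04 without ketogenic replicate 1 to 0.16 without ketogenic replicate 3. Abhd12 (ENSMUSG00000032046), which acts on 2-AG and on lysophosphatidylserine and is lost in the human neurodegenerative disease PHARC, measured 89.1, 93.2 and 78.7 FPKM in ketogenic replicates 1, 2 and 3, against 75.5, 83.7 and 76.8 FPKM in chow replicates 1, 2 and 3. Both genes thus overlapped between the diets, by 1 ketogenic library in the case of Abhd12, where ketogenic replicates 1 and 2 exceeded every chow library. The log2 change of Abhd12 was 0.14 ± 0.10 (SE), with a 95% interval from -0.11 to 0.39 and the smallest adjusted p of the set (limma, adjusted p = 0.756). Only 15.3% and 15.5% of tested genes had a smaller within-group SD than Abhd6 and Abhd12.

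**Figure D3:**
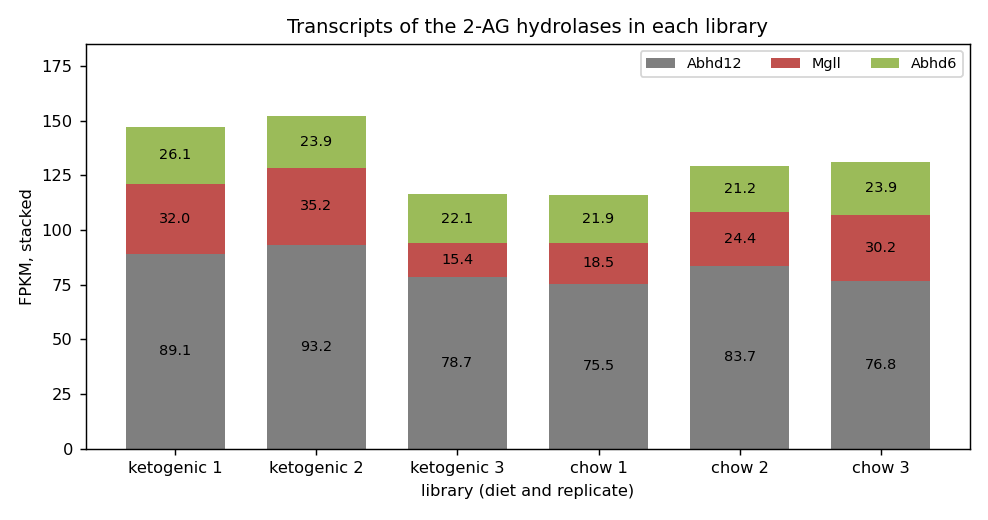
Stacked FPKM of Abhd12, Mgll and Abhd6 in each library, ketogenic left of chow, with the value of each gene written in its bar. The total is highest in ketogenic replicates 1 and 2 and lowest in chow replicate 1, and most of the difference between libraries lies in the Mgll segment, from 15.4 to 35.2 FPKM, and the Abhd12 segment, from 75.5 to 93.2 FPKM.

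The proportions of the hydrolase transcripts had close means in the 2 diets. Mgll made up 19.4 ± 5.33% of the summed FPKM of Mgll, Abhd6 and Abhd12 (SD, n = 3) on the ketogenic diet and 19.3 ± 3.59% on chow, while Abhd12 made up 63.1 ± 3.98% and 62.8 ± 3.62%. By library, the Mgll share was 21.8%, 23.1% and 13.3% in ketogenic replicates 1, 2 and 3, against 15.9%, 18.9% and 23.1% in chow replicates 1, 2 and 3. The ratio of Mgll to Dagla was 1.01, 1.19 and 1.08 in ketogenic replicates 1, 2 and 3, against 0.763, 1.31 and 1.34 in chow replicates 1, 2 and 3. It was lowest in chow replicate 1, so the ketogenic ratios fell between the chow ones. These shares describe transcripts and not enzyme activity, and they were not tested.

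For the N-acylethanolamines, Napepld and Faah differed in opposite directions, neither beyond the spread between mice. Napepld (ENSMUSG00000044968), the phospholipase D that releases N-acylethanolamines from their membrane precursor, measured 8.47, 5.14 and 6.31 FPKM in ketogenic replicates 1, 2 and 3, against 15.0, 4.13 and 6.80 FPKM in chow replicates 1, 2 and 3. Chow replicate 1 stood well above the other 5 libraries, and chow replicate 2 was the lowest. The mean was 6.64 ± 1.69 FPKM (SD, n = 3) in ketogenic mice and 8.66 ± 5.69 FPKM in chow mice, and the log2 change was -0.20 ± 0.44 (SE) with a 95% interval from -1.26 to 0.85. Without chow replicate 1, where thalamic markers were highest, the log2 change of Napepld was 0.27, and with the thalamic marker level as a covariate it was 0.74 ± 0.24 (SE; limma, unadjusted p = 0.0234, adjusted p = 1.00). It was -0.0025 with the choroid plexus marker level as a covariate, and -0.60 without chow replicate 2.

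Faah (ENSMUSG00000034171), the amidase that ends anandamide signalling, measured 15.8, 11.7 and 9.82 FPKM in ketogenic replicates 1, 2 and 3, against 10.6, 8.26 and 12.6 FPKM in chow replicates 1, 2 and 3. Ketogenic replicate 1 was the highest library and chow replicate 2 the lowest, with the other 4 interleaved. The mean was 12.4 ± 3.09 FPKM (SD, n = 3) in ketogenic mice and 10.5 ± 2.17 FPKM in chow mice, and the log2 change was 0.23 ± 0.22 (SE) with a 95% interval from -0.29 to 0.76. It remained positive when any 1 library was left out, from 0.05 without ketogenic replicate 1 to 0.38 without ketogenic replicate 3. Ketogenic replicate 1 also had the highest hippocampal marker sum, 198 FPKM, while the lowest, 87.2 FPKM, was in chow replicate 1. The part of these markers in the Faah level was not tested. The ratio of Faah to Napepld was 1.87, 2.27 and 1.56 in ketogenic replicates 1, 2 and 3, against 0.702, 2.00 and 1.85 in chow replicates 1, 2 and 3. Chow replicate 1 was the only library with more Napepld than Faah, and the ratios of the other 5 overlapped between the diets.

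Ordered by their mean FPKM over all 6 libraries, the genes ran from Abhd12 at 82.8 FPKM through Cnr1 at 33.7, Mgll at 26.0, Dagla at 23.5, Abhd6 at 23.2, Faah at 11.5 and Napepld at 7.65 to Daglb at 2.68 FPKM. Abhd12 exceeded Cnr1, Abhd6 exceeded Faah and Napepld exceeded Daglb in 6 of 6 libraries, with Daglb taken as counted. The middle of the order was not fixed, with Cnr1 above Mgll in 3 of 6 libraries and Dagla above Abhd6 in 3 of 6. Mgll was above Dagla in 5 of 6 and Faah above Napepld in 5 of 6, the exception being chow replicate 1 in both cases.

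**Figure D4:**
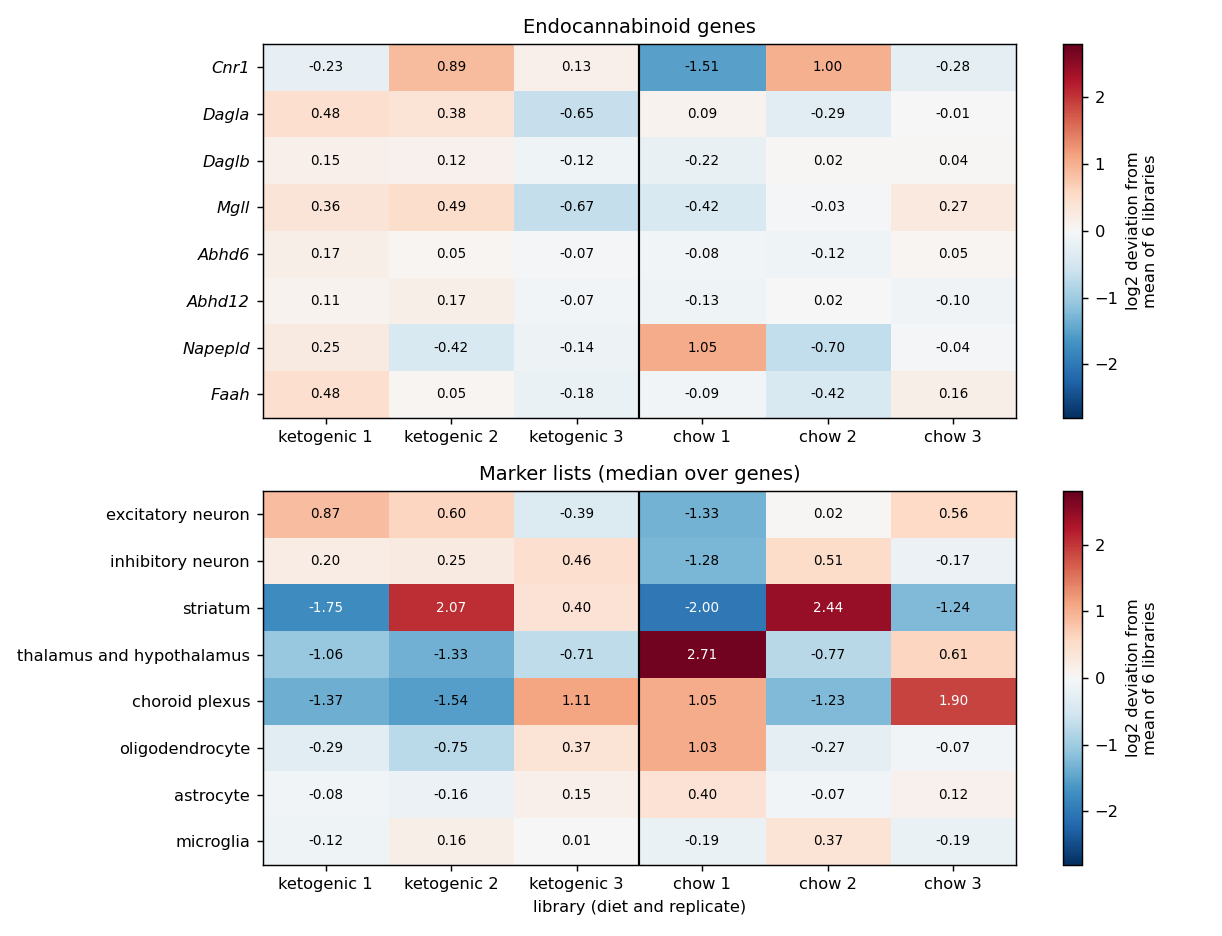
Deviation of log2(FPKM + 0.5) from the mean of the 6 libraries, for each endocannabinoid gene (top) and as the median over each marker list (bottom), with ketogenic libraries left of the vertical line and chow libraries right of it. Chow replicate 1 is lowest for Cnr1 (-1.51) and highest for Napepld (1.05) and thalamic markers (2.71), and ketogenic replicate 2 and chow replicate 2 are high for Cnr1 (0.89 and 1.00) and striatal markers (2.07 and 2.44).

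The genes fell into those that moved with the libraries and those that stayed level. Cnr1, Napepld, Mgll and Dagla had within-group SDs of 0.97, 0.67, 0.51 and 0.46 on the log2 scale, beside a median of 0.20 for all tested genes. Faah had 0.31, Daglb 0.15, and Abhd6 and Abhd12 0.10 each. Likeness of pattern was measured as the root mean square difference of centred log2 levels over the 6 libraries, among genes that averaged 5 FPKM or more. Each member was compared with 7351 genes over only 6 values, so some close matches come from the search itself. The closest to Cnr1 were the Rac activator Tiam2, the kinase Dclk3 and the C2 domain protein Mctp1, with differences of 0.07, 0.14 and 0.14. Tiam2 was highest in ketogenic replicate 2 and chow replicate 2, at 10.4 and 10.8 FPKM, and lowest in chow replicate 1, at 1.57 FPKM. Cnr1 was too, which follows from picking Tiam2 by its likeness to Cnr1 in these same libraries. Closest to Dagla were the adenosine A1 receptor Adora1 and the upper-layer transcription factor Cux2 (0.12 each), and closest to Mgll were Rims4, Olfm2 and the adenylate cyclase Adcy2 (0.14, 0.14 and 0.15). Napepld was nearest to Cbln4 and Il1rap (0.16 and 0.18), and Faah to the postsynaptic scaffold Shank1, Vasn and Thrsp (0.04, 0.07 and 0.07). The level genes were near other level genes, with Ica1, Mta2 and Atg101 for Daglb, Pcif1, Kif1bp and Gatc for Abhd6 and Sap30bp, Sgsm3 and Arid1b for Abhd12, all with differences of 0.032 or less. The levels were centred but not scaled, so genes of little spread lie close by this measure whatever their pattern.

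The other genes of the pathway did not differ between the diets as tested either. Of 74 genes in lists of further enzymes, receptors, CB1 partners, G proteins and effectors, Gq signalling, lipid carriers and CB1-rich interneurons, 62 reached 0.5 FPKM, with 31 higher and 31 lower in ketogenic mice and a median log2 change of 0.01. With limma, 0 had an adjusted p under 0.05 and 3 had an unadjusted p under 0.05, which is 4.84% beside 5.38% of all tested genes. The same 3 had groups without overlap, beside 12.4% of all tested genes. They were Gna11, a Gq-class G protein, Scp2, a sterol carrier that can bind endocannabinoids, and Pla2g4e, an N-acyltransferase that makes the precursor on which Napepld acts. Pla2g4e measured 1.53, 1.47 and 1.26 FPKM in ketogenic replicates 1, 2 and 3, against 0.642, 0.798 and 1.19 FPKM in chow replicates 1, 2 and 3, a log2 change of 0.50 ± 0.19 (SE; limma, adjusted p = 0.752). Gna11 averaged 28.4 ± 1.36 FPKM (SD, n = 3) in ketogenic mice and 23.0 ± 2.42 FPKM in chow mice, and Scp2 29.7 ± 0.527 and 34.7 ± 1.11 FPKM. All 3 groups of values were without overlap, though for Pla2g4e the nearest libraries, ketogenic replicate 3 and chow replicate 3, lay close.

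Among 12 genes of Gq receptors and phospholipase C, which act before Dagla, 7 were higher and 5 lower. The muscarinic receptor Chrm1 measured 37.1, 35.3 and 26.9 FPKM in ketogenic replicates 1, 2 and 3, against 7.06, 27.6 and 21.2 FPKM in chow replicates 1, 2 and 3, a log2 change of 1.00 ± 0.48 (SE). The groups overlapped, and chow replicate 1 was the lowest library for Chrm1, as it was for Cnr1. The receptor Grm5, which triggers 2-AG release at forebrain synapses, had a log2 change of 0.12.

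Of 5 carriers of endocannabinoids in the cell, 5 were lower in ketogenic mice, and the median log2 change was -0.22, and none passed the test. The brain fatty acid binding protein Fabp7 had a log2 change of -0.85 and Fabp5 one of -0.39, each with overlapping groups, and both were highest in chow replicate 1, as were the oligodendrocyte and astrocyte marker sums, at 2119 and 746 FPKM. The part of those cells in the carriers' values was not tested. Of 7 CB1 partners 5 were higher, with the CB1-interacting protein Cnrip1 at a log2 change of 0.32 and Sgip1, which slows CB1 endocytosis, at -0.05. Of 14 G proteins and effectors 9 were higher, with the N-type calcium channel Cacna1b, which CB1 inhibits, at 0.29. In 9 further enzymes of N-acylethanolamines and their precursors that could be tested, 4 were higher and 5 lower, and in 4 tested enzymes of other 2-AG routes 4 were lower, with the lipase Ddhd1 at -0.36 and the cyclooxygenase Ptgs2 at -0.09. Of 9 markers of CB1-rich interneurons 5 were higher, with Htr3a at 0.75 and Sncg at -1.11. Each gene named in these sentences overlapped between the diets.

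Other receptors that respond to cannabinoids were scarce in this tissue. The second cannabinoid receptor Cnr2, known from immune cells, lay between 0.018 and 0.189 FPKM, and the ion channel Trpv1 between 0.029 and 0.090 FPKM. Gpr55 lay between 0.251 and 0.647 FPKM, and Gpr18 and Gpr119 did not exceed 0.060 and 0.044 FPKM. Of the 8 genes of this list only Ppara and Pparg reached a mean of 0.5 FPKM, with log2 changes of -0.11 and 0.15.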

How the data were processed

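The submitters' processing notes name HISAT2, featureCounts, Subread and the build GRCm39. The sources used here do not give versions, annotation release or strand setting, and the labels name 2 sequencing instruments without saying which library ran on which. The authors deposited FPKM per gene, with 1 column per mouse, matched to the labels by name, and 0 columns were left unassigned. Symbols came from GENCODE M21 by gene identifier (35175 of 36079 matched), with newer symbols matched through RefSeq synonyms. The 16009 genes averaging 0.5 FPKM or more were fitted in R 4.3.3 using limma 3.58.1 (trend, diet as the only term, two-sided) on log2(FPKM + 0.5), with Benjamini-Hochberg adjustment over all of them. This scale understates changes of low genes. Errors are limma's standard errors or SDs over 3 mice. P-values set a diet difference against the spread between these mice, which limma moderates with that of all fitted genes. Whole reads were recovered from the FPKM steps for 100% of the 33862 genes above 0 (tolerance 0.001), taking for each gene the smallest whole numbers with its ratios between libraries. They served for depth and for the alternative fit with voom. No pair of libraries agreed within counting noise (chi-square per gene of 38.8 or more). The fit was also run on simulated reads with large changes and a single dispersion, which says nothing of its power for these genes.

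Named genes were the 8 members, the 12 pathway genes with the smallest unadjusted p, and the 3 nearest in pattern to each member, with further list members given to describe a list and chosen after their values were seen. Some genes that the rule names are withheld for evaluation and not reported here. Members and lists were chosen with earlier results of these data known. Alternatives were 2 pseudocounts, 2 filters, rescaling to TPM, quantile normalization, median centring, voom, a replicate block, 3 marker levels as covariates and leaving out each library.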

Additional observations from a re-analysis of the deposited data

How the results depend on the processing

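In all 18 alternatives, 0 of the tested genes, 0 of the 8 endocannabinoid genes and 0 of the other pathway genes passed an adjusted p of 0.05. Genes with an unadjusted p under 0.05 numbered 861, and 1566 without a filter, 535 and 451 with the thalamic and choroid plexus covariates, and between 524 and 1853 with 1 library left out, the extremes being without ketogenic replicate 2 and without chow replicate 2 (also 572, 539 and 598 without ketogenic replicate 1, chow replicate 1 and chow replicate 3). Abhd6, Abhd12 and Faah kept their sign in all 18. No gene of the 8 changed sign with another pseudocount, filter, scaling or voom. With the thalamic covariate the log2 changes turned to -0.83 for Cnr1, -0.057 for Daglb, -0.23 for Mgll and 0.74 for Napepld, and with the choroid plexus covariate to -0.019 for Dagla and -0.087 for Mgll. Leaving out 1 library gave ranges from -0.094 to 1.16 for Cnr1, -0.065 to 0.50 for Dagla, -0.10 to 0.48 for Mgll and -0.60 to 0.27 for Napepld. The cause of these turns was not tested. Same-numbered mice deviated together in replicate 2 but not in replicates 1 and 3 (correlations across genes of 0.48, -0.04 and -0.21). Mice of different number reached 0.45 (ketogenic replicate 1 with chow replicate 3) and 0.31 (ketogenic replicate 3 with chow replicate 1), and the remaining such pairs were negative. The numbers were therefore not taken to pair the mice. A replicate block left the log2 changes as they were, with 982 genes at an unadjusted p under 0.05 and an adjusted p for Cnr1 of 0.700 (limma). With 3 mice per diet, an interval as wide as that of Cnr1, from -0.99 to 2.05 on the log2 scale, limits what can be said of its size or sign.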
